A study of Rattus norvegicus with 22 samples.

Results

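Neuregulin 1 (Nrg1), the 4 ErbB receptors and 5 ligands of the epidermal growth factor (EGF) family were followed in rat liver across 2 diets and 2 lengths of feeding. These 10 genes were picked by their names on the array, out of 26276 gene names, and they are read by 14 of the 30367 non-control probes. The list was built around Nrg1, which was chosen by its own values in these arrays: its ratio to the reference is highest in the rats fed the enriched diet for 14 months. Its levels are therefore given as a description, with no test.

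ErbB receptors are tyrosine kinases of the cell surface that work in pairs. EGF (Egf), transforming growth factor alpha (Tgfa) and amphiregulin (Areg) bind the EGF receptor (Egfr), heparin-binding EGF (Hbegf) and betacellulin (Btc) bind Egfr and Erbb4, and neuregulins bind Erbb3 and Erbb4. Erbb2 has no known ligand of its own and pairs with the others, and Erbb3, whose kinase is weak, signals through its partner. In liver, Egfr and its ligands are best known for their part in regeneration, and hepatocytes carry Egfr and Erbb3.

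The study asked how long-term feeding with a biologically active substances-enriched diet (BASE-diet) affects liver expression. Male Sprague-Dawley rats that were young adults at the start ate a semi-synthetic control diet (CD) or the BASE-diet (BD) for 3 or 14 months, which gave the groups CD 3 and BD 3 with 5 rats each and CD 14 and BD 14 with 6 rats each. By the labels, the BASE-diet contained 6% salmon fat, 8% linden inflorescence extract, 8% pumpkin puree and 1% probiotic. The diet table of the study gives a lower share of probiotic. Liver RNA of each rat was hybridized to 1 Agilent two-colour array against a common reference, liver RNA of healthy rats aged 10 weeks, so each rat is 1 replicate. Values are the log2 ratio of the rat's signal (Cy5) to the reference (Cy3). The sample labels assign Cy5 to the rats, while the methods describe the dyes otherwise; the labels were followed, and turning the dyes would turn the sign of every ratio below and exchange the rats' channel with the reference. As whole liver was used, more cells of a type and more RNA per cell cannot be told apart.

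The 22 arrays had 52.4 to 93.6% of spots well above background in Cy5, and array CD 3 rat 4 was the weakest. All 8 hepatocyte markers examined, among them Alb and Ttr, were well above background on every array. The arrays lay on 5 slides. All 6 BD 14 arrays shared 1 slide with CD 14 rats 4 and 5, and no slide held both BD 14 and BD 3.

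Only 1 probe on the array carries the name Nrg1, so several Nrg1 probes could not be compared. It lies on chromosome 16 of the rat build rn4, on the plus strand, at chr16:64093933-64093992. Its 60 bases are shown with those of 1 probe each for Nrg2 and Nrg4, which read 2 further neuregulins, because the 3 probes cover the same stretch of their transcripts: the code for the EGF-like domain, which binds the receptor. Capitals mark the 7 bases that the 3 sequences have in common.
Nrg1 A_64_P281840: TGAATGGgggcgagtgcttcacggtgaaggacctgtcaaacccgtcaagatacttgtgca
Nrg2 A_64_P053115: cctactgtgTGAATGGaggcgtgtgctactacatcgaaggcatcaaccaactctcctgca
Nrg4 A_64_P091007: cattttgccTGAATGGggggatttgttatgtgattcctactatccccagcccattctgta
Aligned on these 7 bases, the Nrg1 probe matched the Nrg2 probe at 27 of 51 positions (52.9%) and the Nrg4 probe at 23 of 51 (45.1%). The 7-base run alone is in 157 of the 30367 probes (0.517%). The Nrg2 probe lies on the minus strand at chr18:28670922-28670981 and the Nrg4 probe on the minus strand at chr8:58828059-58828118.

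Detection split the family. Signal well above background in the rats' channel was found on all 22 arrays for Egfr, Erbb3, both Tgfa probes and 1 Egf probe, and on 21 arrays for Nrg1, Hbegf and the other Egf probe. These 8 probes of 6 genes passed the filter on low signal and were tested. The remaining 6 probes of 4 genes did not pass. The 3 Erbb2 probes were well above background on 4, 12 and 15 arrays, the Erbb4 probe on 5, Btc on 4 and Areg on 3. Of these, Erbb4, Areg, Btc and 1 Erbb2 probe (A_64_P038812) were above background on none of the 6 BD 14 arrays and on at most 2 arrays of any other group, and no fold change is given for them. At 1 or more spots of the probe, both channels held a substitute value for signal below background on 16 arrays for Erbb4, 19 for Areg, 14 for Btc and 13 for that Erbb2 probe. The Erbb4 probe spans 1731 bases of the genome and so crosses an intron, whereas the other 13 probes each cover 60 contiguous bases.

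**Figure D1:**
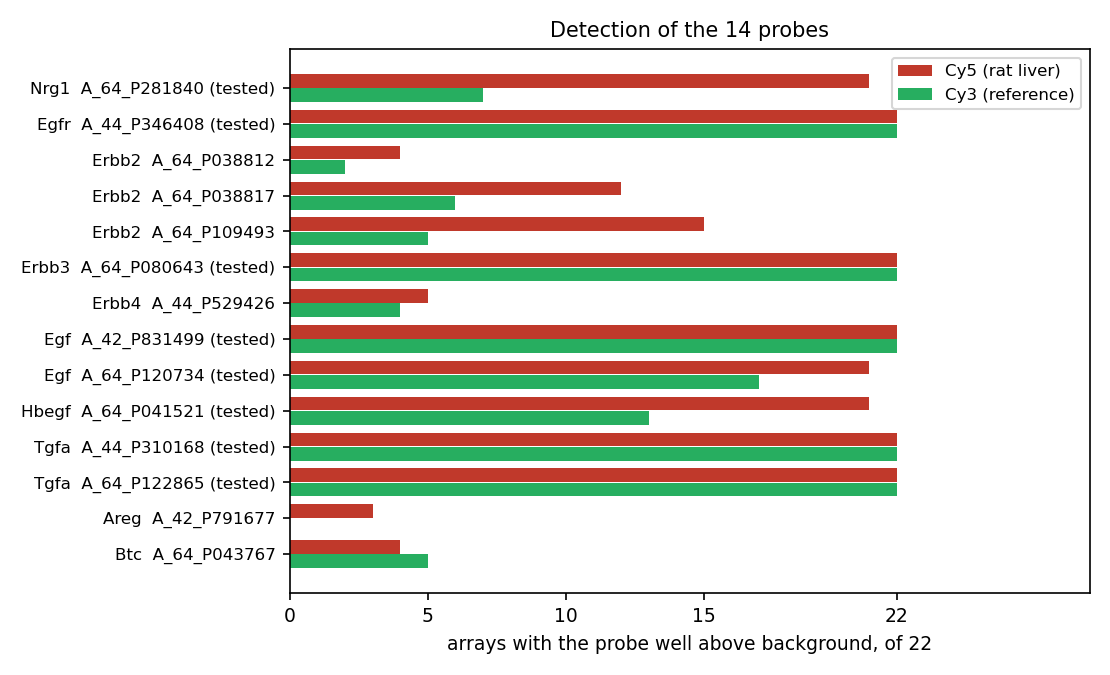
Number of arrays, of 22, on which each of the 14 probes was well above background, in the rats' channel (Cy5) and in the reference (Cy3). Nrg1 was detected on 21 arrays in the rats and on 7 in the reference, and the Erbb2, Erbb4, Areg and Btc probes on 3 to 15 arrays in the rats.

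The Nrg1 ratio was highest in BD 14. In CD 3, the log2 ratios of Nrg1 were 1.19, 1.97, 0.39, 0.36 and 1.30 (mean 1.04 ± 0.68 SD, n = 5). In BD 3 they were 1.81, 0.67, 1.30, 1.26 and 0.60 (mean 1.13 ± 0.50 SD, n = 5). In CD 14 the lowest, median and highest were 1.07, 1.94 and 2.57 (mean 1.94 ± 0.58 SD, n = 6), and in BD 14 they were 2.69, 3.03 and 4.27 (mean 3.17 ± 0.56 SD, n = 6). Every BD 14 rat was above every one of the other 16 rats, whereas the other 3 groups overlapped. Over the array, 6 of the 18736 probes with complete values (0.0320%) had all BD 14 arrays above the other 16; as Nrg1 was chosen for this pattern, that share is background only. The mean ratios of BD 14 and CD 14 lay 1.24 apart on the log2 scale, and those of BD 14 and BD 3 lay 2.05 apart. These gaps are not measured fold changes, since the ratio divides by a reference signal that was not well above background on any BD 14 array. In the rats' channel alone BD 14 and CD 14 differed by 0.50, and by 0.0024 without scaling between arrays. The ratios of CD 14 exceeded those of CD 3 by 0.89, and the 2 groups overlapped. BD 3 and CD 3 differed by 0.08, less than the spread within either group. The diet difference at 14 months exceeded that at 3 months by 1.15 in the ratio, and by 0.18 in the rats' channel alone.

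**Figure D2:**
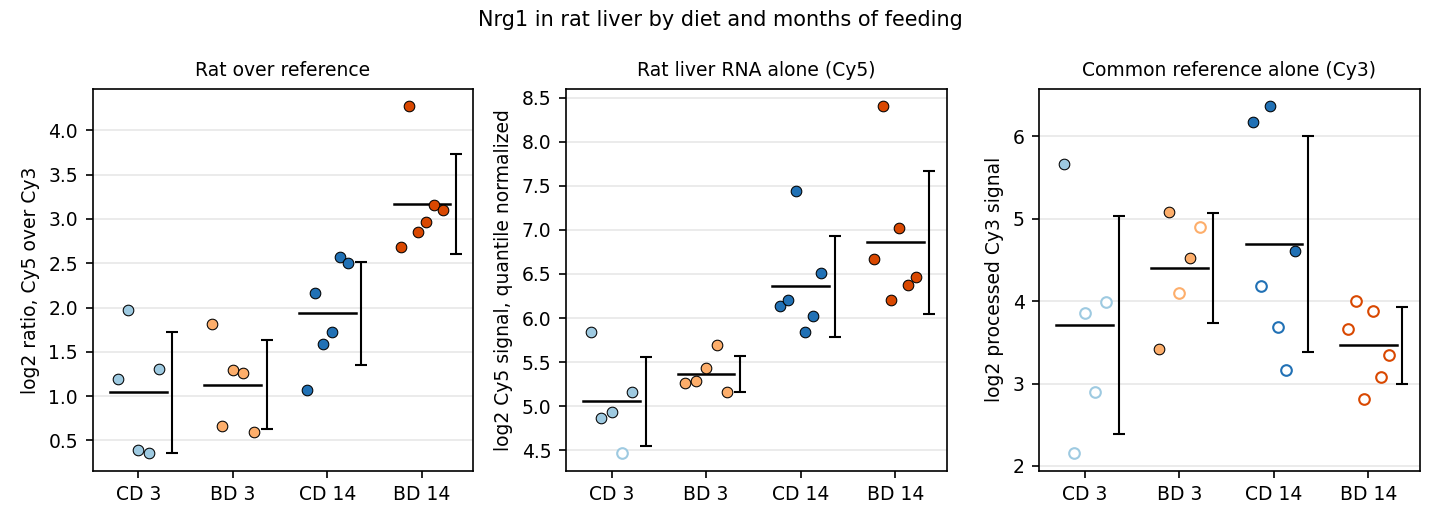
Nrg1 in each rat, by group: the log2 ratio, the Cy5 signal after quantile normalization (log2) and the Cy3 reference signal (log2). Points are rats, lines and bars are the mean and SD, and open points were not well above background in that channel; the 6 BD 14 ratios (2.69 to 4.27) lie above all others, while in Cy5 alone they overlap CD 14 and in Cy3 none is well above background.

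The reference RNA gave little Nrg1 signal: it was well above background on 7 of 22 arrays, namely 1 CD 3 array, 3 BD 3 arrays, 3 CD 14 arrays and 0 BD 14 arrays. Its mean log2 Cy3 signal was 3.71 on the CD 3 arrays and 4.40 on those of BD 3, and it was 4.70 on the CD 14 arrays against 3.46 on the BD 14 arrays. Between BD 14 and CD 14 the reference signal at this probe differed by -1.23, while the median over all tested probes differed by -0.37. The labels give the same reference RNA for every array.

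Read in the rats' channel alone, Nrg1 showed a difference with time in both diets and a smaller one with diet. After quantile normalization between arrays, the mean log2 Cy5 signal at 3 months was 5.05 ± 0.51 (SD, n = 5) with the control diet and 5.37 ± 0.20 (SD, n = 5) with the BASE-diet. At 14 months it was 6.36 ± 0.57 (SD, n = 6) with the control diet and 6.86 ± 0.81 (SD, n = 6) with the BASE-diet. The difference BD 14 minus CD 14 was then 0.50, less than the SD within either group, and 2 of the other 16 rats, both in CD 14, lay above the lowest BD 14 rat. The differences with time were 1.30 in the control diet and 1.49 in the BASE-diet, the latter with no overlap between groups. On this scale 23 probes (0.123%) had all BD 14 arrays on top, and Nrg1 was not among them. In Cy5 signal that was not scaled between arrays, BD 14 and CD 14 differed by 0.0024, and 8 of the 16 other arrays lay above the lowest BD 14 array.

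On the slide that held all BD 14 arrays, CD 14 rats 4 and 5 had Nrg1 ratios of 1.72 and 2.57, below the BD 14 range of 2.69 to 4.27, with a difference in means of 1.03. Their quantile-normalized Cy5 signals, 5.84 and 6.02, were also below the BD 14 range of 6.20 to 8.40. Their reference signals, 3.68 and 3.17, fell inside the BD 14 range of 2.81 to 4.00. In Cy5 signal not scaled between arrays, CD 14 rat 5 (5.74) lay above the lowest BD 14 rat (5.67). With background corrected by a model that adds an offset (normexp) and loess between the dyes, the BD 14 minus CD 14 difference was 0.26, the BD 14 minus BD 3 difference was 0.62, and the diet effect at 14 months exceeded that at 3 months by 0.27.

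Among the receptors, Erbb3, the main neuregulin receptor of hepatocytes, was lowest in CD 14. Its log2 ratios in CD 3 were 0.31, 0.26, -0.26, -0.41 and -0.34, and in BD 3 they were 0.27, 0.29, -0.07, -0.44 and -0.19. In CD 14 the lowest, median and highest were -0.77, -0.48 and -0.21, and in BD 14 they were -0.50, -0.05 and 0.22. All groups overlapped. BD 14 exceeded CD 14 by 0.39 (SE 0.18; adjusted p = 0.952), and CD 14 minus CD 3 was -0.41 (SE 0.19; adjusted p = 0.478), so neither passed once adjusted over the 19434 probes tested. In the rats' channel alone the diet difference of Erbb3 was 0.10, and the reference signal at this probe differed by -0.83. The Erbb3 probe lies at chr7:1858095-1858154.

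Egfr, the receptor of most of these ligands, showed no difference beyond its spread. The log2 ratios were -0.29, -0.27, -0.47, -3.62 and -1.29 in CD 3. In BD 3 they were 0.00, -0.83, -1.39, -0.92 and -1.58. The lowest, median and highest were -1.76, -1.09 and -0.61 in CD 14 and -1.61, -0.92 and 0.43 in BD 14. CD 3 rat 4, the weakest array, stood far below the rest, and all groups overlapped. The difference BD 14 minus CD 14 was 0.32 with a 95% interval from -0.66 to 1.30, which leaves room for a change in either direction.

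Of the ligands, Hbegf had the lowest p. It is made as a membrane-bound precursor and released by proteases. In CD 3 the log2 ratios of Hbegf were -0.87, 0.24, -0.24, 0.73 and 0.52, and in BD 3 they were -0.71, -0.26, 0.50, 0.12 and -0.64. In CD 14 the lowest, median and highest were -0.25, -0.05 and 0.94, and in BD 14 they were 0.14, 0.72 and 0.81. The 6 BD 14 values were all above 0, yet the groups overlapped. BD 14 exceeded BD 3 by 0.82 (SE 0.29; adjusted p = 0.486) and CD 14 by 0.51 (SE 0.27; adjusted p = 0.952). As with Nrg1, the Hbegf reference signal was low, well above background on 1 of 6 BD 14 arrays and 5 of 5 BD 3 arrays. In the rats' channel alone, BD 14 minus BD 3 was 0.37, and with the slide as a term it turned to -0.09, both with an unadjusted p above 0.05.

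Tgfa, which hepatocytes make in regeneration, was read by 2 probes whose ratios disagreed. The probe within the coding part (A_64_P122865) had log2 ratios of 0.02, 0.06, 0.15, -0.09 and 0.01 in CD 3 and -0.11, 0.27, 0.00, -0.14 and -0.02 in BD 3. Its lowest, median and highest were -0.49, -0.24 and -0.03 in CD 14, and -0.26, -0.11 and 0.07 in BD 14. The groups overlapped. CD 14 minus CD 3 was -0.28 (SE 0.13; adjusted p = 0.471) at this probe, and 0.09 in the rats' channel alone. The other Tgfa probe (A_44_P310168) gave 0.79 for the same comparison (SE 0.39; adjusted p = 0.507), and -0.02 in the rats' channel alone.

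Egf, which the liver clears from the blood, was also read by 2 probes. At A_64_P120734 the log2 ratios were 0.37, 1.01, 1.25, -1.50 and 0.11 in CD 3 and 0.32, 0.56, 0.70, 0.63 and 0.80 in BD 3. The lowest, median and highest were -1.02, -0.17 and 0.57 in CD 14 and -0.02, 0.25 and 1.10 in BD 14, so the 14-month groups overlapped. BD 14 exceeded CD 14 by 0.68 (SE 0.36; adjusted p = 0.952), and by 1.07 within the slide that held both, where its unadjusted p was under 0.05 and its adjusted p was not. In the rats' channel alone the difference was 0.25, while the reference signal at this probe differed by -1.10, and with normexp and loess it was 0.17. Of 34 alternatives, 7 gave an unadjusted p under 0.05. The other Egf probe (A_42_P831499) gave 0.02 (SE 0.27; adjusted p = 0.998) for BD 14 minus CD 14.

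**Figure D3:**
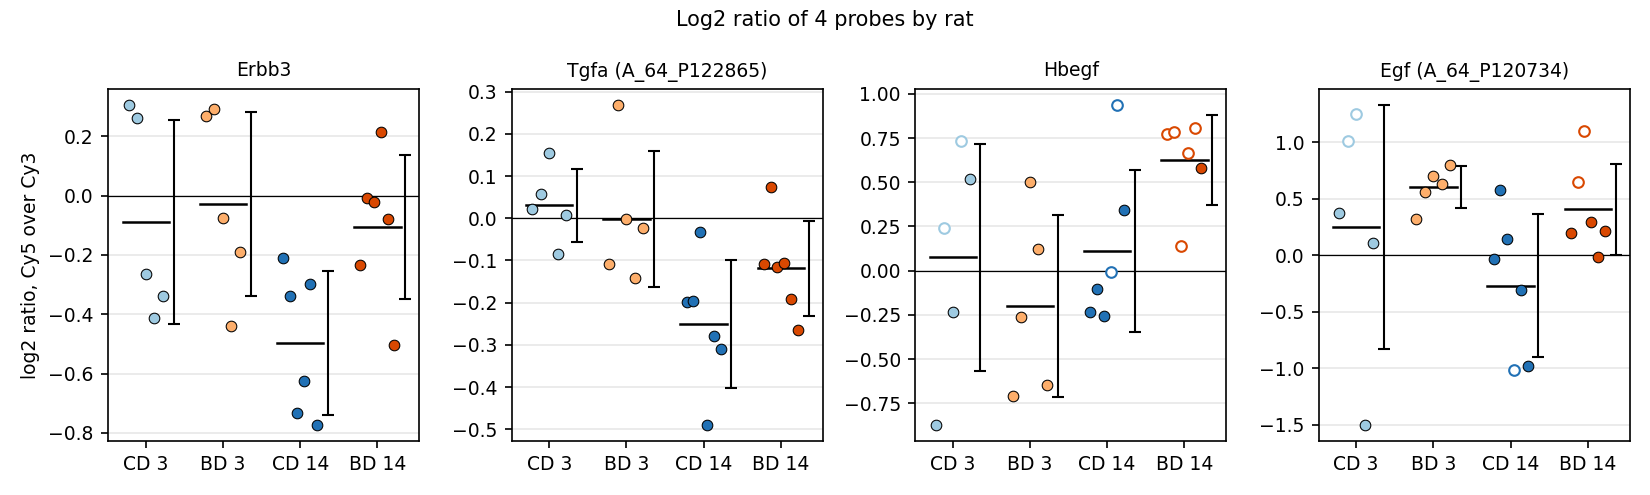
Log2 ratios of Erbb3, Tgfa (A_64_P122865), Hbegf and Egf (A_64_P120734) in each rat by group. Points are rats, lines and bars are the mean and SD, and open points have a reference signal not well above background; the groups overlap in all 4 panels, and the Hbegf values of BD 14 run from 0.14 to 0.81.

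Counted over the 7 tested probes of the other genes, limma called none in any comparison after adjustment, where it also called 0 of the 19434 probes tested (0%). For the diet at 3 months, 0 of the 7 had an unadjusted p under 0.05, against 7.11% of all probes tested. For the diet at 14 months 1 did (Erbb3), against 4.60%. Between 14 and 3 months 2 did in the control diet (Erbb3 and Tgfa), against 10.1%, and 1 did in the BASE-diet (Hbegf), against 7.44%. The difference between the 2 diet effects had an unadjusted p under 0.05 for 0 of 7 probes, against 4.80%, and the lowest was that of Hbegf (0.79, SE 0.40, adjusted p = 0.999). The median difference of the 7 probes was 0.24 and 0.32 for the diet at 3 and 14 months, and -0.16 and -0.08 for time in the control diet and the BASE-diet, beside medians over all tested probes of 0.03, 0.05, 0.03 and 0.07. All 4 pairs of groups overlapped at each of the 7 probes. Over the 18736 probes with complete values, 0.715% and 0.763% had no overlap for the diet at 3 and 14 months, and 0.502% and 2.31% for time in the control diet and the BASE-diet.

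**Figure D4:**
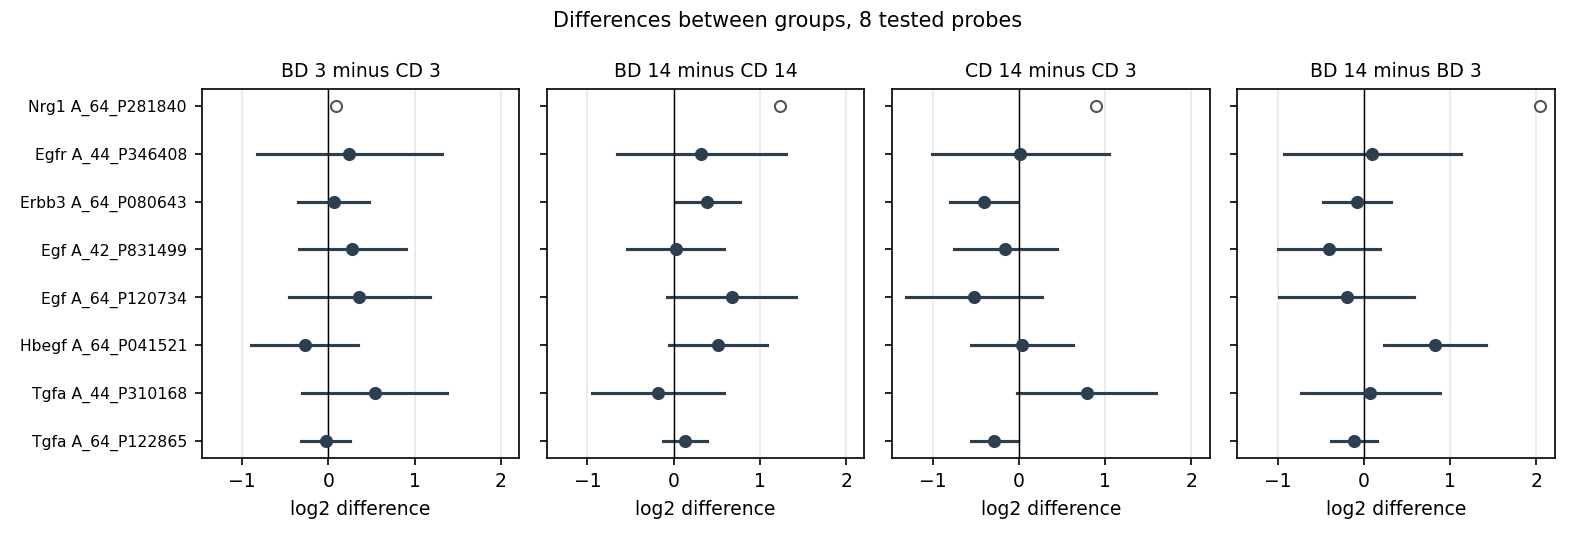
Log2 differences between groups at the 8 tested probes. Points are the differences, lines their 95% intervals, and Nrg1 is drawn open without an interval as it was chosen by its values; Hbegf in BD 14 minus BD 3 (0.82) has the interval farthest from 0.

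The remaining ligands of the family, Ereg, Epgn, Nrg2, Nrg3 and Nrg4, differed in detection. Of their 7 probes, 1 for Nrg4 (A_64_P091007, printed above) was well above background on 21 arrays, as many as Nrg1, and was tested. The second Nrg4 probe reached 7 arrays, the Nrg2 probes 4 and 10, Epgn 1, and Ereg and Nrg3 none. The Nrg4 differences were -0.14 and -0.19 for the diet at 3 and 14 months and -0.54 and -0.59 for time in the control diet and the BASE-diet. None of the 4 had an unadjusted p under 0.05. Nrg4 thus showed values opposite in sign to those of Nrg1 with time, without passing the test.

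Genes that release the ligands or carry the signal were examined in 6 lists of 77 genes, of which 62 were tested. None passed after adjustment. Without adjustment, 4 of 62 (6.45%) were higher and 0 lower with the diet at 3 months, where 7.11% of all tested probes passed, 970 higher and 411 lower. With the diet at 14 months 6 (9.68%) were higher and 0 lower, where 4.60% of all probes passed, 737 higher and 156 lower. With time in the control diet 6 (9.68%) were higher and 0 lower, where 10.1% of all probes passed, 1331 higher and 639 lower. With time in the BASE-diet 4 were higher and 3 lower (11.3% together), where 7.44% of all probes passed, 925 higher and 521 lower. Pooled over the 62 genes, the median difference was 0.15 to 0.19 in the 4 comparisons, above the medians of all tested probes. The medians of single lists ran from -0.59 to 0.61, the lowest from a list with only 1 tested gene, Nrg4. Among the other lists the lowest median was -0.06, for the receptor brakes with the diet at 3 months. Each of the 6 lists held at most 3 genes with an unadjusted p under 0.05 in any comparison.

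The counts of list genes moved with the processing, as did the share of all probes. With each array left out, they ran from 3 to 9 for the diet at 3 months (5.07 to 12.7% of all probes). They ran from 3 to 8 for the diet at 14 months (3.12 to 6.98%). For time they ran from 3 to 10 in the control diet (8.01 to 14.2%) and 6 to 10 in the BASE-diet (5.79 to 9.48%). With the diet at 3 months they numbered 4, against 0 with array weights (4.62% of all probes), 7 with an intensity trend (7.27%), 8 with the slide as a term (2147 of 19434) and 17 within a slide (5359 of 19126). With the diet at 14 months they numbered 6, against 11 with array weights (10.8%) and with only the 2 groups (10.1%), and 3 with Cy5 alone (5.62%) and with a stricter detection filter, which kept 44 of the genes (2.87%). For time in the control diet (6) they numbered 3 with the slide as a term (6.01%) and with Cy5 alone (9.95%), and in the BASE-diet (7) 13 with array weights (15.3%), 11 with only the 2 groups (14.6%), 4 of 44 with the stricter filter (6.04%) and 1 with the slide as a term (4.64%).

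For the diet at 14 months, the genes with the lowest p were 2 that are known to act after the receptor and 1 that restrains it. Spry4, a Sprouty inhibitor of receptor kinase signalling, was higher by 0.63 (SE 0.19; adjusted p = 0.767), with -0.34 to 0.14 in CD 14 and -0.03 to 0.96 in BD 14. In the rats' channel alone the Spry4 difference was -0.10, and with normexp and loess it was 0.24. Cyclin D1 (Ccnd1), which drives entry into the cell cycle, was higher by 1.17 (SE 0.43; adjusted p = 0.934), by 0.87 in the rats' channel, where its unadjusted p was above 0.05, and by 2.42 within the slide that held both groups. The Ccnd1 ratios ran from -2.54 to -0.15 in CD 14 and from -1.19 to 0.52 in BD 14. Gab1, a docking adaptor of ErbB receptors, was higher by 0.62 (SE 0.25; adjusted p = 0.952), but by 0.0031 in the rats' channel.

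For time, the gene with the lowest p in each diet was a protease that releases ligands from the cell surface, a different one in each. Adam17, which sheds Tgfa, Hbegf and Areg, was higher in BD 14 than in BD 3 by 1.14 (SE 0.31; adjusted p = 0.313). Its lowest, median and highest ratios were -1.43, -0.59 and 0.01 in BD 3 and -0.01, 0.63 and 1.09 in BD 14, so these groups overlapped only at their ends. With the slide as a term the Adam17 difference was 0.32, with an unadjusted p above 0.05, and with normexp and loess it was 0.44. In the control diet Adam17 differed with time by 0.30, with an unadjusted p above 0.05. Adam10, which sheds Egf and Btc, was higher in CD 14 than in CD 3 by 1.31 (SE 0.39; adjusted p = 0.244), and by 0.60, with an unadjusted p just above 0.05, without CD 3 rats 1 and 4 and CD 14 rat 1, the 3 arrays that stood apart. Between the 1 CD 14 rat and 1 CD 3 rat that shared a slide the Adam10 difference was -0.09, with no test, and with the slide as a term it was 0.43. In the BASE-diet Adam10 differed with time by 0.20, with an unadjusted p above 0.05.

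The rest were signalling genes. In the BASE-diet, the kinase Src was higher at 14 months by 0.96 (SE 0.32; adjusted p = 0.447) and the transcription factor Stat5a lower, at -0.84 (SE 0.29; adjusted p = 0.489). The Src difference was 0.33 with the slide as a term and 0.20 with normexp and loess, and that of Stat5a was -0.39 in the rats' channel alone. In the control diet, the inhibitor Spry1 was higher at 14 months by 0.69 (SE 0.29; adjusted p = 0.416), by 0.10 with the slide as a term, and by -0.43 between the 1 CD 14 rat and 1 CD 3 rat that shared a slide, with no test. Spry1 was also among the lowest p for the diet at 3 months, with Plcg1, a phospholipase that ErbB receptors activate: Plcg1 differed by 0.74 (adjusted p = 0.540) and Spry1 by 0.71 (adjusted p = 0.630). Plcg1 differed by 0.38 without the 3 arrays that stood apart and by 1.31 within a slide, and Spry1 by 0.33 with the slide as a term. Both comparisons of Spry1 use the same CD 3 rats.

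**Figure D5:**
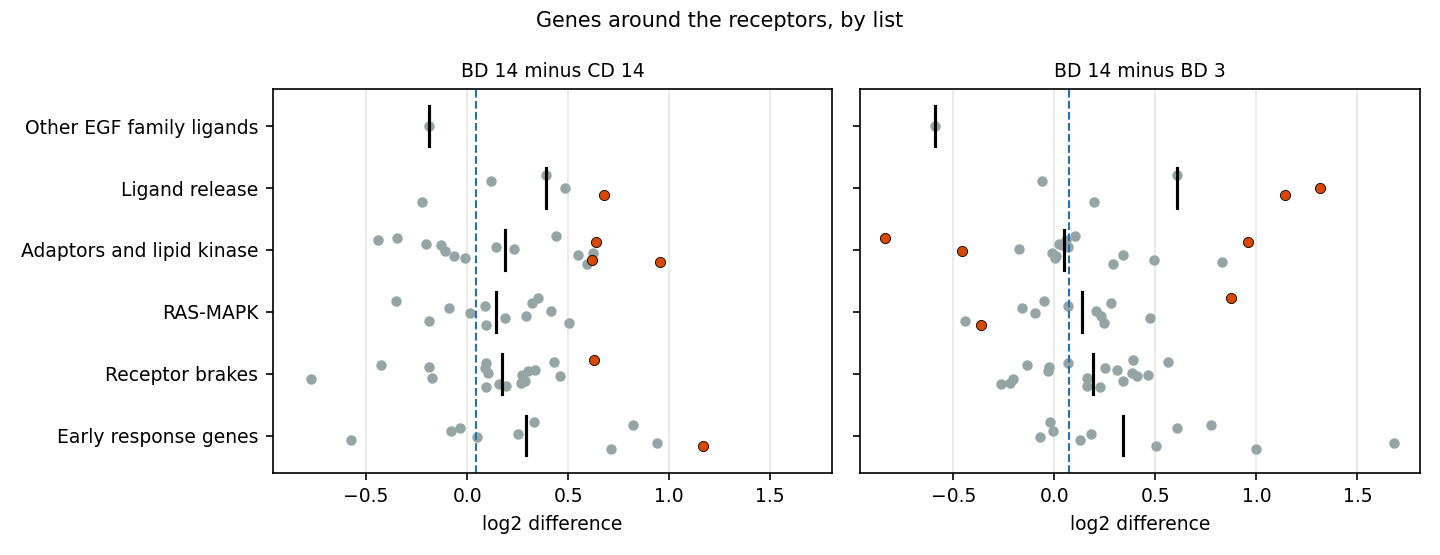
Log2 differences of the tested genes of the 6 lists, for BD 14 minus CD 14 and BD 14 minus BD 3. Each point is a gene, orange points have an unadjusted p under 0.05, black bars are list medians and the dashed line is the median of all tested probes; 6 genes are orange in the first panel, all above 0, and 7 in the second, 4 above and 3 below.

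The genes whose ratios followed Nrg1 most closely over the 22 arrays were LOC501089 (Pearson r = 0.84), Sptlc2 (0.83), Myl12a (0.82), Rrbp1 (0.81) and Tacc1 (0.81), out of 16547 genes with complete values. The 22 points share slides and a reference RNA, and the correlations are a description. By Spearman's rho 3 of these 5 stayed among the 5 closest, in the rats' channel alone 1 did, and after the group means were subtracted 0 did. Of the family, Hbegf was closest to Nrg1 in the ratio (r = 0.56), and the other 6 probes lay between -0.33 and 0.33. After the group means were subtracted the order changed, with 0.43 for Egfr, 0.29 for Tgfa (A_44_P310168) and 0.25 for Hbegf.

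No marker of other liver cells passed after adjustment. Of 7 Kupffer cell and macrophage marker names, 5 were higher in CD 14 than in CD 3 at an unadjusted p under 0.05 (10.1% of all tested probes passed in either direction), with a list median of 1.19. Between BD 14 and CD 14 0 of 7 passed this threshold, against 4.60% of all probes (median -0.27). Their summed log2 Cy5 signal ran from 11.4 to 12.9 (CD 3), 12.5 to 13.1 (BD 3), 12.3 to 15.1 (CD 14) and 12.6 to 13.8 (BD 14) over the rats of each group. The names include Emr1 and Adgre1, an older and a newer symbol of the same gene. That gene may therefore be counted more than once in the counts, medians and sums of this list. Nerve and Schwann cells are a known source of neuregulin 1. Of 5 markers of these cells 4 were tested. At an unadjusted p under 0.05, 1 of the 4 was higher in BD 14 than in CD 14, against 4.60% of all probes, with a list median of -0.02. Between BD 14 and BD 3, 1 was higher and 1 lower, against 7.44%, with a list median of 0.13. Their summed signal ran from 7.56 to 8.75 in CD 3, 6.64 to 7.87 in BD 3, 6.86 to 7.77 in CD 14 and 7.45 to 8.10 in BD 14. No gene of either list was below background on every array. The part of other cell types in the values of Nrg1 and its relatives was not tested.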

How the data were processed

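Agilent two-colour arrays of liver RNA, 1 for each of 22 rats, were analysed. The log10 values deposited by the authors are, per the file headers, processed Cy5 divided by processed Cy3. In the files the value is 0 at every spot where both channels held a substitute for signal below background, and at some others. The processed and mean intensity values were deposited by the authors as Feature Extraction wrote them, after background subtraction and Lowess within each array. The headers give version 10.10.1.1 of that software and the submitters' processing notes 10.7.3.1. The authors also deposited log2 values of 3017 probes, centred by a constant of each probe that is not stated; 12 of their columns were used and 10 could not be matched to a sample and were left out. That table held 3 of the 14 probes.

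Log10 ratios were turned to log2, control and non-uniform spots left out, and spots of a probe averaged, with no scaling between arrays. Testing was limited to probes with a Cy5 signal flagged well above background, for a share of 0.5 or more of their spots, on each array of 1 or more groups. The group means were fitted with limma 3.58.1 in R 4.3.3 (lmFit, eBayes) over all 19434 such probes and 22 arrays. P-values are two-sided and were adjusted by Benjamini-Hochberg over these probes, with a threshold of 0.05. The number of arrays limits the precision. The fit was tested on simulated data.

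Alternatives were normexp with an offset of 50 and loess, Cy5 alone, centring, other filters, array weights, slide and rat number as terms, within-slide values, each array left out, and the F test and Tukey's HSD of the methods. Without the 3 arrays that stand apart was added after seeing the data. The members and lists were chosen with earlier results of these data known. All member probes, the 3 list genes of lowest p per comparison and the 5 genes closest to Nrg1 are named. The values of 1 list gene that met this rule are not reported here. Probe names, coordinates and sequences are those of the array files (rn4). Tables were made with Python 3.11.15, numpy 2.4.6 and pandas 2.3.3.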

Additional observations from a re-analysis of the deposited data

Results flagged for a closer look

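In 3 of the 32 groups of 6 rats or of 5 rats examined at the 8 tested probes, 1 rat lay far from the others of its group by Dixon's criterion, which chance meets in about 1 in 20 groups. BD 14 rat 2 had an Nrg1 log2 ratio of 4.27, and the nearest rat of its group had 3.15. CD 14 rat 4 had an Egf log2 ratio of -1.08 at the probe A_42_P831499, and the nearest had -0.05. BD 14 rat 3 had an Hbegf log2 ratio of 0.14, and the nearest had 0.58.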

How the results depend on the processing

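No probe of the other genes was called after adjustment under any alternative. Over the whole array up to 221 probes were called for the diet at 3 months (Cy5 alone), 205 for time in the control diet (without CD 3 rat 5), 99 for time in the BASE-diet (array weights) and 4 for the diet at 14 months (array weights). Of the 7 probes, the number with an unadjusted p under 0.05 changed often. For the diet at 3 months (0 of 7) it was 1 with Cy5 alone (15.2% of all probes) and 1 within the slide that held both groups (5359 of 19126). For the diet at 14 months (1 of 7) it was 0 with an intensity trend, with centred arrays, with Cy5 alone and with the methods' F test and Tukey's HSD, 2 with array weights, 2 without the 3 arrays that stood apart, and 3 with only the 2 groups compared. For time in the control diet (2 of 7) it was 1 with an intensity trend, with normexp and with the methods' F test, and 0 with array weights, with the slide as a term, with Cy5 alone and with only the 2 groups. For time in the BASE-diet (1 of 7) it was 0 with the slide as a term, with the strict filter, with normexp and with the methods' F test, and 2 of 13 with no filter. Under some alternatives the count stayed and the gene changed. With Cy5 alone, Tgfa (A_64_P122865, -0.79) took the place of Hbegf for time in the BASE-diet (12.5% of all probes). Egf (A_64_P120734) took that of Erbb3 for the diet at 14 months with the slide as a term (7.80%) and within the slide (11.3%). The share of all probes over the alternatives fitted with limma is given first without the fits that left out 1 array. It ran from 2.87 to 11.3% for the diet at 14 months. For time it ran from 6.01 to 12.5% in the control diet and from 4.64 to 15.3% in the BASE-diet. No such range is given for the diet at 3 months, where the comparison within a slide held only 1 CD 3 array. With each array left out in turn, the counts among the 7 probes ran from 0 to 0, 0 to 2, 0 to 3 and 1 to 1 in the same order. The shares of all probes then ran from 5.07 to 12.7%, 3.12 to 6.98%, 8.01 to 14.2% and 5.79 to 9.48%. The unadjusted p of Erbb3 for the diet at 14 months rose above 0.05 without CD 14 rat 3, 4 or 6 or BD 14 rat 2, 3, 4 or 5 (differences 0.33 to 0.39), and that of Tgfa (A_64_P122865) for time in the control diet without CD 3 rat 2, 3 or 5 or CD 14 rat 4, 5 or 6.

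With the rat number as a replicate block, the counts were 2 for the diet at 14 months (4.65% of all probes) and 0 for time in the control diet (9.29%). Of 31 pairs of arrays that share a number, 8 had a correlation of deviations over 0.1 (range -0.27 to 0.29). Pairs with different numbers were not examined, so whether the numbers pair the rats was not tested.

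Signs turned, among others, for Hbegf in BD 14 minus BD 3 (-0.089 with the slide as a term), and with Cy5 alone for Tgfa at A_64_P122865 in CD 14 minus CD 3 (0.095) and in the difference of the diet effects (-0.89), and for Spry4 in BD 14 minus CD 14 (-0.10). They also turned for Tgfa at A_44_P310168 in CD 14 minus CD 3 (-0.02 with Cy5 alone), for Adam10 (-0.09) and Spry1 (-0.43) in CD 14 minus CD 3 between the 1 rat of each of these groups on a shared slide, and under some alternative for most member differences whose p was not under 0.05. The causes were not tested. Nrg1 in BD 14 minus CD 14 ran from 0.26 to 1.36 over 35 alternatives and in BD 14 minus BD 3 from 0.62 to 2.22 over 33.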
